A study of Mus musculus with 6 samples.

Results

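The 52 genes described here are the rows whose symbol belongs to a fixed list of cell cycle and proliferation genes, out of 23282 rows counted in liver sinusoidal endothelial cells (LSECs), the endothelium of the liver's sinusoids, which is perforated by fenestrae. By role, 21 genes act in mitosis or mark dividing cells, 10 in DNA replication, 12 are cyclins, cyclin-dependent kinases (CDKs) and RB-E2F or Myc factors of the G1 phase, 6 are CDK inhibitors and 3 are p53 and its regulators. All 52 were found, and 48 passed the filter on low counts. LSECs came from Txnip-/- mice, which lack thioredoxin-interacting protein in every tissue, and from WT C57BL/6J mice, with 3 libraries per genotype. The knockout was described on a C57BL/6J background. Cells were selected with CD146 beads after liver perfusion. A culture in endothelial medium is described, but whether and for how long it came before RNA was taken, and the age, sex and diet of these mice, were not given in the sources used here. Nothing in the labels states that the libraries came from separate mice, so p-values measure the spread between these libraries.

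D-type cyclins with CDK4 or CDK6 phosphorylate RB in G1, which releases E2F factors that turn on genes for DNA replication. Genes for mitosis are transcribed later, through the NF-Y and B-MYB complexes on their promoters. p53 activates Cdkn1a, Mdm2 and Ccng1, and the product of Cdkn1a blocks the CDKs. LSECs divide rarely in the resting adult liver, and TXNIP has been described as a brake on cell proliferation.

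QuantSeq reads come from the 3′ end of each mRNA, so that counts stand for transcripts and levels may be set side by side between genes without a correction for length. Levels are given as CPM, counts scaled to the library size with TMM factors, and in pairs of values Txnip-/- comes first. A gene rose or fell where edgeR's quasi-likelihood test gave an adjusted p under 0.05 with a fold change above 1.3, and such a gene is called a DEG. Txnip, the targeted gene, was counted 269, 216 and 191 times under the knockout label and 1901, 2019 and 1994 times under the WT label. Library totals lay between 9147764 and 10193952 counts, where 3 counts equal 0.294 to 0.328 CPM. WT replicates 1 and 2 differed from the remaining 4 libraries, since the ribosomal RNA row Rn45s took 10% and 9.68% of their counts against 16.8% to 18.6%. In a chi-square of counts per degree of freedom they differed from each other by 3.93 and from WT replicate 3 by 37.0 and 40.2, while WT replicate 3 lay at 13.3 to 17.1 from the Txnip-/- libraries. This chi-square took in all rows averaging at least 10 counts, Rn45s among them, so that it partly restates the difference in Rn45s. All 14 LSEC markers were detected, at means of 8.02 to 2312 CPM. All 14 had lower fitted levels in Txnip-/- LSECs and 2 of them, Stab1 and Mrc1, fell, with summed levels of 4780 to 5205 CPM against 5526 to 7328 CPM. The size differed by marker, with log2 fold changes from -0.83 (Gpr182) to -0.042 (Cdh5). Stab1 and Mrc1 were at -0.46 and -0.76, while Pecam1, Kdr and Tek were at -0.077, -0.11 and -0.11. An unadjusted p under 0.05 (edgeR) was found for 8 of the 14. Lyve1, the most abundant, overlapped between the genotypes through WT replicate 3 (1475 to 1976 CPM in Txnip-/- libraries against 1520 CPM).

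To show what the promoters of these genes share, the 250 bases upstream of the start of each gene (RefSeq, GRCm38.p6) were searched on both strands for the CCAAT box of NF-Y (CCAAT), the CHR element of mitotic genes (TTTGAA or TTCGAA) and E2F motifs (TTTCCCGC, TTTCGCGC, TTTGCCGC or TTTGGCGC). The table of promoters held 41 of the 52 genes, without Ccnd1 and Ccna2. A CCAAT box was found in 24 of 26 promoters of S and M phase genes, a CHR in 11 and an E2F motif in 4. Among the 12 promoters of G1 regulators, these numbers were 3, 2 and 3. Of 27025 promoters in all, 34.5% held a CCAAT box, 17.4% a CHR and 1.91% an E2F motif. Most promoters of replication and mitosis genes held a CCAAT box, and most of those of G1 regulators did not. The promoters of Top2a, which encodes the topoisomerase of dividing cells, of Mcm6, a subunit of the replicative helicase, of Tyms, the thymidylate synthase, and of Cdkn1a are shown because the results below turn on these genes or on their role. Capitals mark the motifs, and in Mcm6 a pair of E2F matches on opposite strands overlap. The window of Top2a is chr11:99024190-99024439 (minus strand), that of Mcm6 chr1:128359706-128359955 (minus strand), that of Tyms chr5:30073626-30073875 (minus strand) and that of Cdkn1a chr17:29090729-29090978 (plus strand).
Top2a: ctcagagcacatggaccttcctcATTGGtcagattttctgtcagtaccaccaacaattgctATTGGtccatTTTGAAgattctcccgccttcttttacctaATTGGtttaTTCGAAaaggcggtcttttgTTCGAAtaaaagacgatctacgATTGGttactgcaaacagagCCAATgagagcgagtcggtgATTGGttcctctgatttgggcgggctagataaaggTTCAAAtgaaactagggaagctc
Mcm6: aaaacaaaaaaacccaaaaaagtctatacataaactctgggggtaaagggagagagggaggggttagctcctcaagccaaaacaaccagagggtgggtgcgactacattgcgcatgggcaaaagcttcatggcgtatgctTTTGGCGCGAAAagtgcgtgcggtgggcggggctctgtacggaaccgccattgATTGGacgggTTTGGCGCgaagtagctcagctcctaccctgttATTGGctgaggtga
Tyms: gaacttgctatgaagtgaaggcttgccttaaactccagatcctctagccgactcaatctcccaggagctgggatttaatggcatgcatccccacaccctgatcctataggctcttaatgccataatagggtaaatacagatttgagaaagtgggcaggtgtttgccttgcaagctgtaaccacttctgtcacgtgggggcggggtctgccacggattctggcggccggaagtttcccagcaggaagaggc
Cdkn1a: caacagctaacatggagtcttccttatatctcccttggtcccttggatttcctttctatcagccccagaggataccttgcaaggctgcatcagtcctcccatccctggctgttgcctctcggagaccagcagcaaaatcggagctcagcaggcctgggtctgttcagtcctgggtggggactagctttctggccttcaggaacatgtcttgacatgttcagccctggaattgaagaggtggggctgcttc
Top2a held 6 CCAAT boxes and 4 CHR elements, and Mcm6 held 2 CCAAT boxes and 3 E2F motifs. No match to these letters was found in the windows of Tyms and Cdkn1a.

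Median levels differed by role, although single genes of different roles interleaved. The replication gene Mcm3 (mean 64.6 CPM), for example, lay above the CDK inhibitor gene Cdkn1c (17.8 CPM). Cdkn1a, the p21 CDK inhibitor, was the most abundant of the 52 genes, with 3744, 3639 and 3578 CPM in the Txnip-/- libraries and 3276, 3353 and 3940 CPM in the WT libraries. It ranked 11th of all 23282 rows by its mean of 3588 CPM and made up 62.7% of the summed CPM of the 52 genes. The next in order were Mdm2, the ubiquitin ligase that limits p53, at a mean of 483 CPM, the G1 cyclin gene Ccnd2 at 299.5 CPM and Ccng1, a further p53 target, at 217 CPM. The level of Cdkn1a was 7.43 times that of Mdm2 and 10.1 times that of the 31 genes of S and M phase summed. By role, the median level was 217 CPM for the p53 regulators, 44.6 CPM for the CDK inhibitors, 28.5 CPM for the G1 genes, 19.8 CPM for the replication genes and 2.63 CPM for the mitosis genes. Of the 21 mitosis genes, 18 had a mean under 10 CPM, and 5 had fewer than 3 counts in at least 1 library. By these medians, the p53 regulators and CDK inhibitors stood at the top and the mitosis genes at the bottom.

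**Figure D1:**
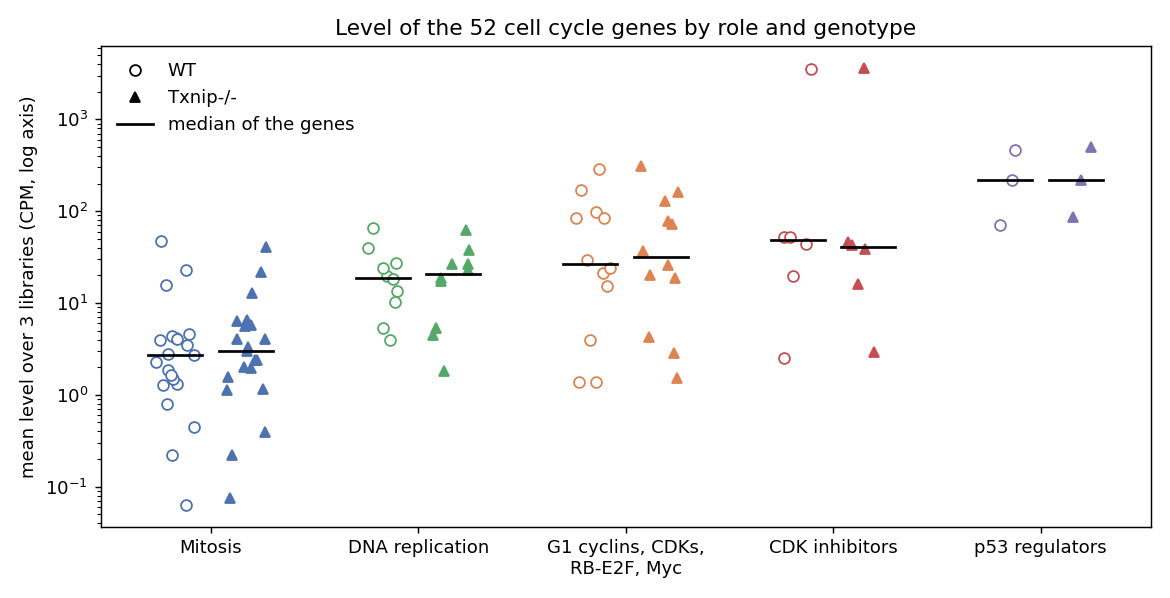
Mean level in CPM (log axis) of each of the 52 genes, by role; open circles stand for WT and filled triangles for Txnip-/- LSECs (mean of 3 libraries each), and lines for the median of the genes. Mitosis genes have the lowest median (2.63 CPM), and Cdkn1a stands alone at the top (3588 CPM).

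To ask whether loss of Txnip changed this program, the genotypes were compared over all 11583 genes that passed the filter. Of the 48 genes tested, 1 was a DEG, the G1 cyclin gene Ccnd1, which rose in Txnip-/- LSECs. DEGs made up 1.44% of all genes tested, with 0.509% higher and 0.932% lower. An unadjusted p under 0.05 was found for 5 of the 48, with Ccnd1, Top2a and Trp53 higher and Tyms and Cdkn2a lower in Txnip-/- LSECs. Of all genes tested 11.5% had one, 5.47% higher and 6.05% lower. The libraries of the genotypes did not overlap for 8 of the 48, with 6 higher and 2 lower in Txnip-/- LSECs, where this held for 17.4% of all genes tested, 8.43% higher and 8.94% lower. The members' counts were thus close to what these shares give for 48 genes. The median log2 fold change was 0.041 over the 48 genes, with 27 higher and 21 lower, and about 0 (-2.75e-05) over all genes.

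**Figure D2:**
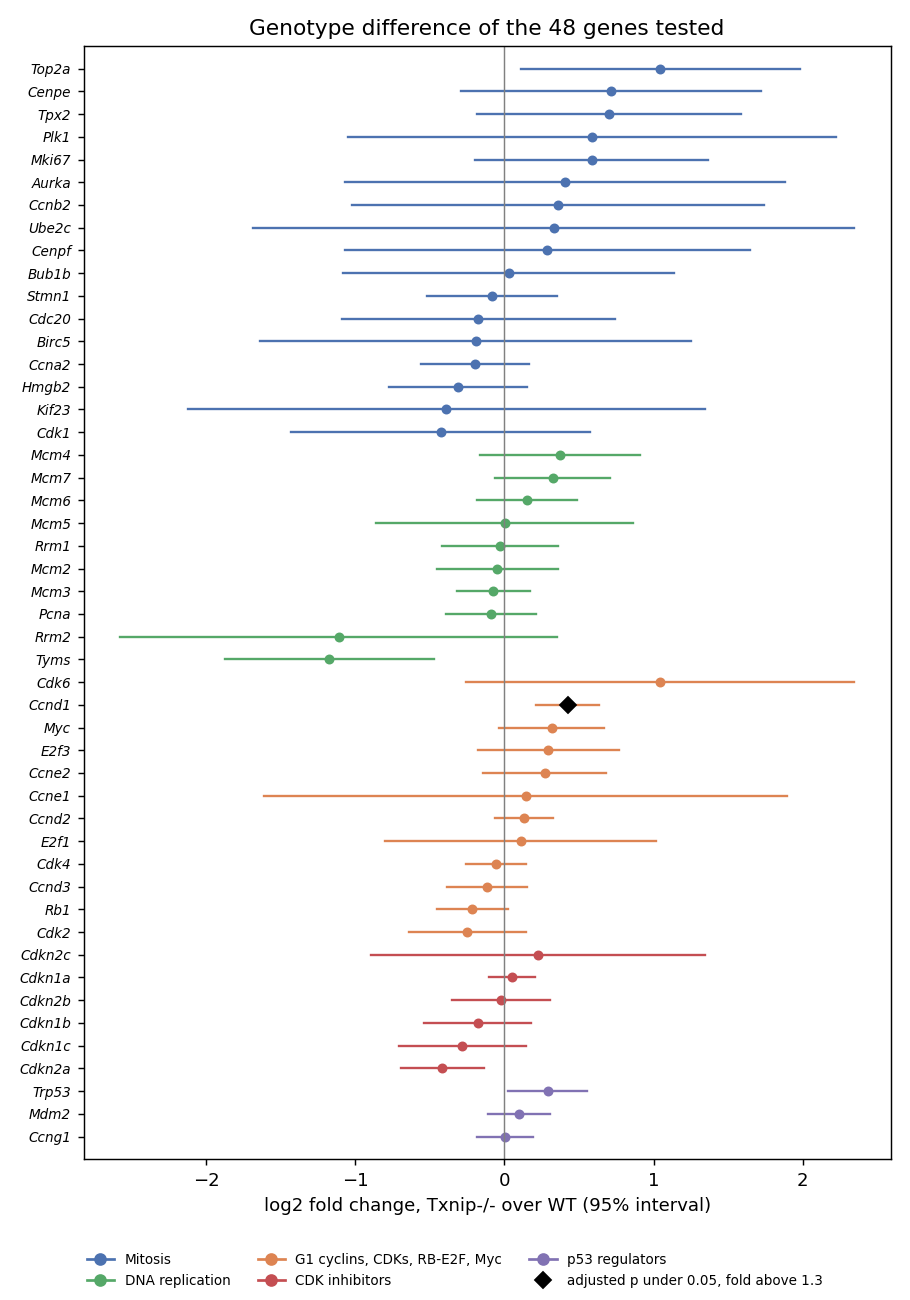
Log2 fold change of the 48 genes tested, Txnip-/- over WT, with its 95% interval (edgeR), coloured by role; the black diamond marks the DEG. The interval of 5 genes leaves out 0, and the mitosis genes have the widest intervals (median standard error 0.476).

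Ccnd1 encodes cyclin D1, which partners CDK4 and CDK6 in G1. Its level was 129, 131 and 132 CPM in the Txnip-/- libraries and 97.2, 106 and 89.4 CPM in the WT libraries, so that the genotypes did not overlap. The means were 131 ± 1.53 CPM (Txnip-/-) and 97.4 ± 8.09 CPM (WT) (SD, n = 3 libraries each), a log2 fold change of 0.43 (standard error 0.10, 95% interval 0.21 to 0.64, adjusted p = 0.0395, edgeR) or 1.34-fold. In GENCODE M21 (GRCm38), Ccnd1 occupies chr7:144929931-144939925 on the minus strand, and its 3′ end, where QuantSeq reads start, is in exon 5. The call rested on all 6 libraries. When single libraries were left out, the log2 fold change lay between 0.37 and 0.49, the adjusted p lay between 0.0484 and 0.203 (edgeR), and Ccnd1 was a DEG in 0 of the 6 fits. Without WT replicate 3 the adjusted p was 0.0484 but the change did not reach 1.3-fold. With a threshold of 1.3 on the log2 scale, none of the 48 genes was a DEG. With library totals in place of TMM factors the log2 fold change was 0.34 (adjusted p = 0.175, edgeR). A term that sets WT replicates 1 and 2 apart leaves WT replicate 3 as the only WT library behind the genotype difference. This lone library is assumed to vary like the others, and the log2 fold change of Ccnd1 against it was 0.55 (adjusted p = 0.0322, edgeR). The 3′ end of Ccnd1 overlaps an exon of Oraov1 (LTO1) on the opposite strand. Oraov1 averaged 14.6 CPM (Txnip-/-) and 14.5 CPM (WT) (log2 fold change 0.009, adjusted p = 0.992, edgeR).

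The other G1 genes that drive the cycle did not pass the test. Ccnd2, the most abundant of the 12, had 322, 298 and 320 CPM in the Txnip-/- libraries and 267, 269 and 322 CPM in the WT libraries, so that the genotypes overlapped through WT replicate 3. Its log2 fold change was 0.13 (95% interval -0.065 to 0.33, adjusted p = 0.657, edgeR). Ccnd3, the remaining D-type cyclin gene, averaged 78.5 ± 10.1 CPM (Txnip-/-) and 85.1 ± 12.3 CPM (WT) (SD, n = 3 libraries each, log2 fold change -0.12, adjusted p = 0.819, edgeR). Of the 3 D-type cyclin genes, only Ccnd1 passed the test, and differences between them were not tested. Cdk4, the kinase partner of these cyclins, had 162 ± 11.7 and 168 ± 11.4 CPM (log2 fold change -0.057, 95% interval -0.26 to 0.15). Cdk6, a kinase of the same role, was low, at 21, 36 and 23 counts for Txnip-/- and 13, 12 and 16 counts for WT. The genotypes did not overlap for Cdk6, but the log2 fold change of 1.04 had a 95% interval of -0.25 to 2.34 (adjusted p = 0.559, edgeR). Rb1, which encodes the pocket protein that these kinases phosphorylate, had 71.9 ± 5.68 and 83.5 ± 6.91 CPM (log2 fold change -0.21, adjusted p = 0.490, edgeR). Myc, a growth factor-responsive transcription factor, had 37.0 ± 6.42 and 29.6 ± 3.57 CPM (log2 fold change 0.32, adjusted p = 0.489, edgeR). Cdk2, Ccne1, Ccne2, E2f1 and E2f3, which act at the passage from G1 to S, had log2 fold changes between -0.25 (Cdk2) and 0.29 (E2f3), and none of them passed an unadjusted p of 0.05. The 3′ ends of Ccnd3, Cdk4 and Ccne2 overlap exons of Bysl, Tspan31 and Ints8 on the opposite strand. The use of strand in the counting was not stated. Ccnd3 and Cdk6 also have near-identical stretches in other annotated genes.

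Among the CDK inhibitors, Cdkn2a had the smallest p. It encodes INK4A and ARF, which share their last exons, so that 3′ reads cannot tell them apart (chr4:89274471-89294653, minus strand). Its level was 36.2, 38.9 and 42.0 CPM in the Txnip-/- libraries and 48.7, 53.9 and 53.6 CPM in the WT libraries. The Txnip-/- libraries were all lower than the WT libraries. The log2 fold change was -0.41 (standard error 0.13, 95% interval -0.69 to -0.14), with an unadjusted p of 0.0057 and an adjusted p of 0.166 (edgeR), so that Cdkn2a was not called. Its neighbour on chromosome 4, Cdkn2b, a further INK4 inhibitor, averaged 43.3 ± 1.34 CPM (Txnip-/-) and 44.0 ± 9.08 CPM (WT) (SD, n = 3 libraries each, log2 fold change -0.022, adjusted p = 0.973, edgeR).

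Cdkn1a (chr17:29090976-29100727, plus strand), with 33468 to 37247 counts per library, overlapped between the genotypes. Its log2 fold change was 0.053 (standard error 0.073, 95% interval -0.10 to 0.21, adjusted p = 0.869, edgeR), an interval of 0.932 to 1.15 in the ratio of Txnip-/- to WT. The 3 Txnip-/- libraries lay between WT replicates 1 and 2 below and WT replicate 3 above. Against WT replicate 3 alone the log2 fold change was -0.11 (adjusted p = 0.397, edgeR), and with library totals it was -0.025. Without WT replicate 3 it was 0.14 (adjusted p = 0.111, edgeR). Cdkn1b, the KIP inhibitor of CDK2, had 46.9, 36.7 and 54.5 CPM in the Txnip-/- libraries and 62.9, 52.2 and 41.0 CPM in the WT libraries, and the genotypes overlapped (log2 fold change -0.18, 95% interval -0.54 to 0.18, adjusted p = 0.773, edgeR). Against WT replicate 3 alone it was 0.165. Cdkn1c and Cdkn2c, the remaining inhibitors, had log2 fold changes of -0.28 and 0.22 with adjusted p-values of 0.663 and 0.924 (edgeR). Of the 6 inhibitors, 2 had higher and 4 lower fitted levels in Txnip-/- LSECs, and the median log2 fold change was -0.10.

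**Figure D3:**
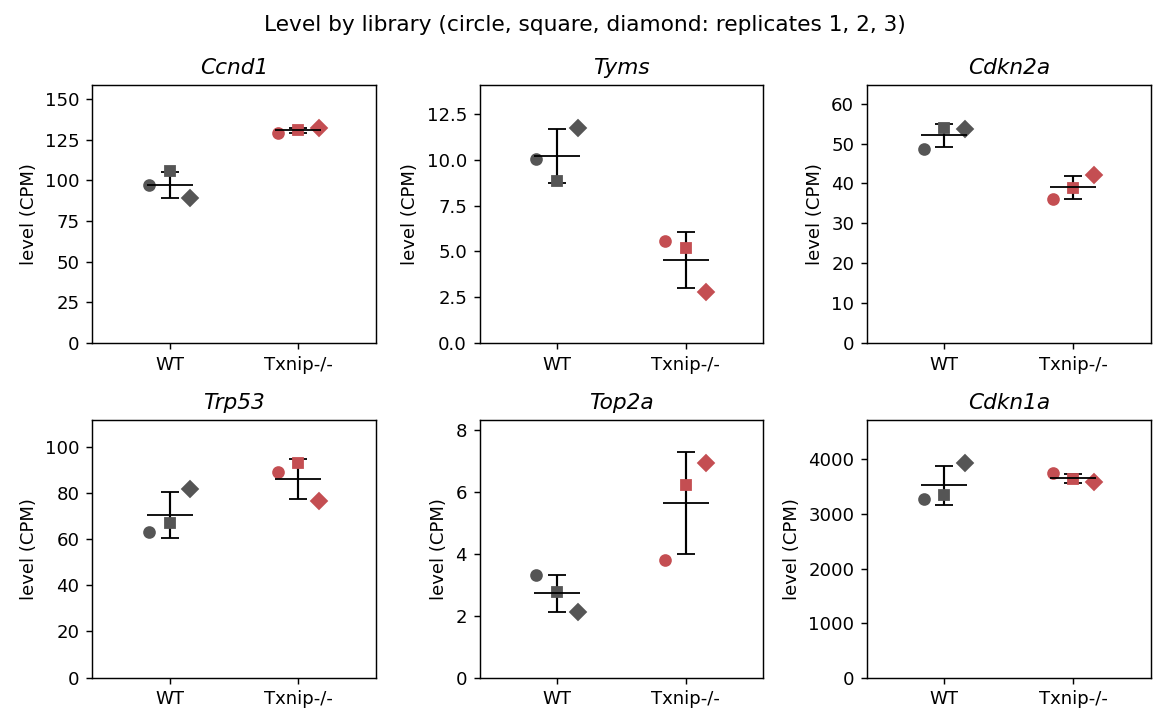
Level in CPM of 6 genes in each library; bars give the mean and SD of 3 libraries, grey stands for WT and red for Txnip-/- LSECs. Ccnd1, Tyms, Cdkn2a and Top2a do not overlap between the genotypes, while Trp53 and Cdkn1a do, with WT replicate 3 (diamond) apart from the other WT libraries for Cdkn1a.

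Trp53 (chr11:69580359-69591873, plus strand), which encodes p53, had 89.0, 93.1 and 76.3 CPM in the Txnip-/- libraries and 62.9, 67.0 and 81.7 CPM in the WT libraries. The genotypes overlapped because WT replicate 3 lay above Txnip-/- replicate 3. The log2 fold change was 0.29 (95% interval 0.028 to 0.55), with an unadjusted p of 0.032 and an adjusted p of 0.366 (edgeR). It was 0.077 against WT replicate 3 alone and 0.41 without WT replicate 3 (adjusted p = 0.0798, edgeR). Mdm2 had 560, 415 and 524 CPM in the Txnip-/- libraries and 468, 464 and 469 CPM in the WT libraries, so that the spread between the Txnip-/- libraries exceeded that between the WT libraries (log2 fold change 0.097, adjusted p = 0.794, edgeR). Ccng1, a cyclin G gene activated by p53, had 218 ± 13.6 and 217 ± 6.94 CPM (log2 fold change 0.005, 95% interval -0.18 to 0.19). Neither of the targets Mdm2 and Ccng1, nor Cdkn1a, passed the test.

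Among the 48 genes tested, the lowest log2 fold change was that of Tyms, which supplies thymidylate for DNA synthesis (chr5:30058202-30073617, minus strand). The Txnip-/- libraries held 50, 51 and 26 counts of Tyms and the WT libraries 103, 93 and 111, or 4.52 ± 1.52 and 10.2 ± 1.45 CPM (SD, n = 3 libraries each). The genotypes did not overlap, with Txnip-/- replicate 3 the lowest. The log2 fold change was -1.17 (standard error 0.33, 95% interval -1.87 to -0.47), with an unadjusted p of 0.0026 and an adjusted p of 0.105 (edgeR). The gene was called by DESeq2 (adjusted p = 0.0462) and by edgeR with no filter on low counts (adjusted p = 0.0331). With each library left out in turn its log2 fold change stayed between -1.35 and -0.92 without a call. The last bases of Tyms match the pseudogene Tyms-ps, and since reads with several alignments were counted, its counts may hold reads of either.

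None of the 6 helicase (Mcm) genes passed the test. Mcm3, the most abundant replication gene, had 60.5, 61.8 and 66.5 CPM in the Txnip-/- libraries and 70.4, 66.4 and 61.8 CPM in the WT libraries, which overlapped (log2 fold change -0.073, 95% interval -0.32 to 0.17). Mcm6 had 28.0, 26.9 and 25.8 CPM against 24.5, 24.6 and 23.4 CPM, without overlap but with a log2 fold change of 0.15 (adjusted p = 0.799, edgeR). Mcm7 also did not overlap, with 22.6 ± 2.23 and 18.1 ± 1.36 CPM (log2 fold change 0.32, adjusted p = 0.538, edgeR). Mcm2, Mcm4 and Mcm5 had log2 fold changes of -0.047, 0.37 and 0.002. Pcna, the sliding clamp of DNA polymerase, had 37.7 ± 2.69 and 40.1 ± 4.09 CPM (log2 fold change -0.090, 95% interval -0.39 to 0.21). Rrm1, the large subunit of ribonucleotide reductase, had 26.5 ± 5.98 and 27.1 ± 3.26 CPM (log2 fold change -0.031). Its partner Rrm2, which is made in S phase, was counted 31, 10 and 9 times (Txnip-/-) and 19, 21 and 75 times (WT). WT replicate 3 lay far above the rest, and the log2 fold change was -1.11 (95% interval -2.57 to 0.35). The 3′ end of Mcm7 overlaps an exon of Cops6 on the opposite strand, and Mcm5, Mcm7 and Rrm2 have near-identical stretches in other genes.

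Of the 21 mitosis genes, 4 (Ccnb1, Bub1, Aurkb and Kif11) had too few counts to be tested, at 0 to 17 counts per library. Of the other 17, 10 had higher and 7 lower fitted levels in Txnip-/- LSECs, 0 were DEGs with edgeR, DESeq2 or limma-trend, and 1, Top2a, had an unadjusted p under 0.05. Counts of Top2a (chr11:98992943-99024189, minus strand) were 34, 61 and 65 for Txnip-/- and 34, 29 and 20 for WT, or 3.80, 6.22 and 6.95 CPM and 3.31, 2.76 and 2.12 CPM. The genotypes did not overlap on the CPM scale, although Txnip-/- replicate 1 and WT replicate 1 had the same count. The log2 fold change was 1.05 (standard error 0.44, 95% interval 0.11 to 1.98, unadjusted p = 0.0308, adjusted p = 0.360, edgeR). Mki67, which encodes the Ki-67 protein of cycling cells, was counted 53, 60 and 65 times (Txnip-/-) and 39, 56 and 33 times (WT). Its CPM values did not overlap (6.33 ± 0.55 and 4.21 ± 0.99), with a log2 fold change of 0.59 (95% interval -0.19 to 1.37, adjusted p = 0.598, edgeR). Both are rare transcripts with wide intervals.

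The most abundant mitosis gene was Ccna2, the cyclin of S and G2 phase, with 40.6, 31.6 and 51.2 CPM in the Txnip-/- libraries and 43.8, 55.3 and 42.1 CPM in the WT libraries. Its 3′ end overlaps an exon of Exosc9 on the opposite strand, which had 55.6 and 60.4 CPM. With the use of strand not stated, the counts of Ccna2 may hold reads of Exosc9. The log2 fold change of Ccna2 was -0.19 (95% interval -0.56 to 0.17, adjusted p = 0.745, edgeR). Stmn1, a microtubule-destabilizing protein gene, and Hmgb2, a chromatin protein gene of dividing cells, followed. Stmn1 had 15.5, 23.1 and 26.9 CPM (Txnip-/-) and 26.1, 23.3 and 20.1 CPM (WT), with a log2 fold change of -0.083. Hmgb2 had 11.5, 12.4 and 14.4 CPM (Txnip-/-) and 17.4, 13.5 and 16.6 CPM (WT), with a log2 fold change of -0.31. Both genes overlapped between the genotypes, and both have near-identical stretches in other annotated genes. The kinase gene Cdk1, which starts mitosis, was counted 30, 27 and 35 times (Txnip-/-) and 70, 33 and 31 times (WT) (log2 fold change -0.43, adjusted p = 0.823, edgeR). The spindle and checkpoint genes Tpx2, Cenpe, Plk1, Aurka, Bub1b and Cdc20 had log2 fold changes from -0.17 (Cdc20) to 0.72 (Cenpe). Single libraries differed widely for some of them. Cenpe had 18 counts in Txnip-/- replicate 1 and 79 and 88 in the other Txnip-/- libraries. The 3′ end of Cdc20 (mean 4.33 CPM) overlaps an exon of Elovl1 on the opposite strand, which had 94.9 and 101 CPM. Ccnb2, Birc5, Kif23, Cenpf and Ube2c were at means of 1 to 3 CPM. Their 95% intervals each spanned more than a 2-fold decrease and a 2-fold increase. Cenpf and Ube2c also have near-identical stretches in other annotated genes.

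G1 regulators were then set against genes of S and M phase, and the libraries of the genotypes overlapped in this contrast. Of the 18 G1 regulators (G1 genes and CDK inhibitors), 10 had higher and 8 lower fitted levels in Txnip-/- LSECs, and the median log2 fold change was 0.082. Of the 27 S and M phase genes tested, 14 were higher and 13 lower, with a median of 0.002. The difference between these medians was -0.080. The parts of each group lay further apart, with medians of 0.289 for mitosis and -0.039 for replication genes. Those of the G1 genes and the CDK inhibitors were 0.138 and -0.100, and differences between the parts were not tested. In single libraries, with each gene taken on the log2 scale against its mean over all 6, the median of S and M phase genes minus that of G1 regulators was -0.176, -0.0409 and 0.0414 (Txnip-/-) and 0.0594, -0.0734 and -0.0335 (WT). The sign of the difference of -0.080 changed against WT replicate 3 alone (0.031) and without Txnip-/- replicate 1, 2 or 3 or WT replicate 1 or 3 (0.015 to 0.119). The summed level of the mitosis genes was 118, 116 and 149 CPM in the Txnip-/- libraries and 131, 127 and 125 CPM in the WT libraries. That of the replication genes was 218, 234 and 223 CPM against 236, 226 and 223 CPM. That of the 12 G1 genes was 872, 854 and 875 CPM against 780.5, 800.5 and 872 CPM. All 3 sums overlapped between the genotypes, the last through WT replicate 3. The precision differed by role, and the 95% interval lay within 1.5-fold either way for 17 of the 48 genes. These were 7 of 18 G1 regulators, 3 of 3 p53 regulators and 7 of 27 genes of S and M phase. The last 7 were 2 of 17 mitosis genes and 5 of 10 replication genes.

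**Figure D4:**
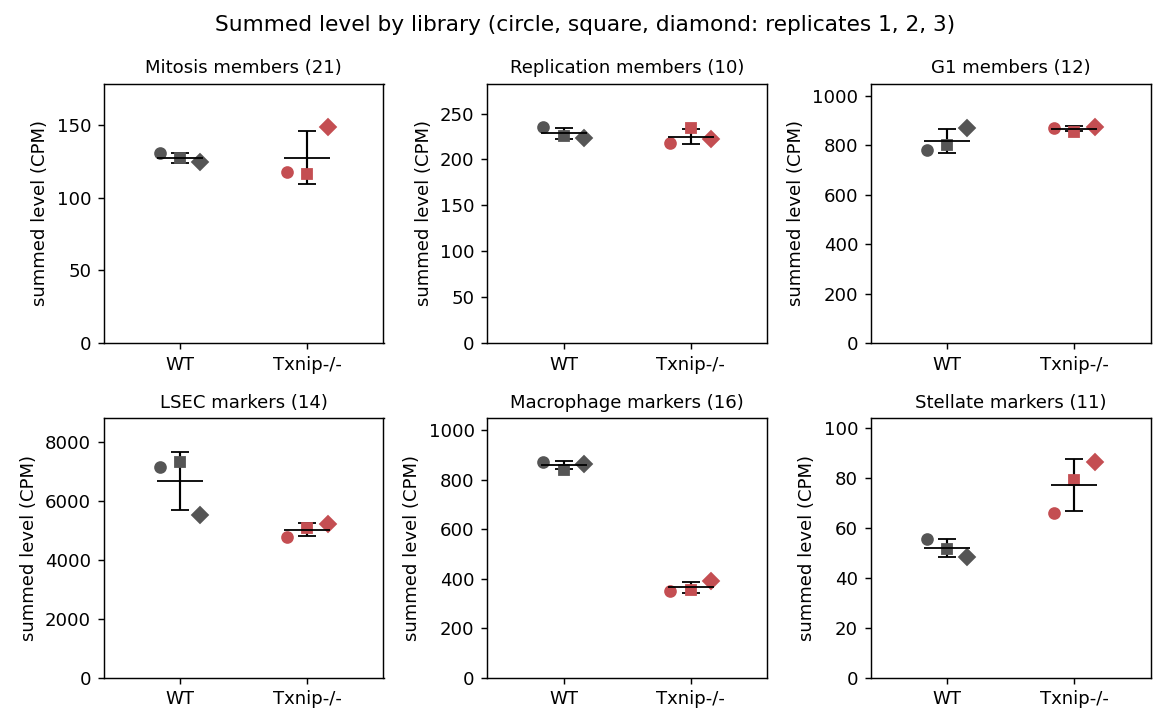
Summed level in CPM by library of 3 role groups (top) and of markers of LSECs, macrophages and stellate cells (bottom); bars give the mean and SD of 3 libraries. The mitosis and replication sums overlap between the genotypes, while the macrophage markers are at 351.5 to 390.3 CPM in Txnip-/- and 841 to 874 CPM in WT LSECs.

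Among markers of other liver cells, the summed levels of the macrophage and stellate cell lists did not overlap between the genotypes, while those of the remaining lists did. Of 16 Kupffer cell and macrophage markers, 15 were tested, all 15 were lower in Txnip-/- LSECs and 12 were DEGs. Their summed level was 351.5 to 390.3 CPM (Txnip-/-) against 841 to 874 CPM (WT), and Timd4, a marker of resident Kupffer cells, was below the filter. Of 11 stellate cell markers, 9 were tested and 2, Dcn and Acta2, rose, and the summed level was 65.7 to 86.4 CPM against 48.2 to 55.4 CPM. Dcn averaged 30.6 and 15.4 CPM and Acta2 14.5 and 5.22 CPM. Of the 9, 8 had higher fitted levels and 1, Ecm1, a lower one (log2 fold change -0.30), and Des and Hgf were at 0.039 and 0.072. Hepatocyte markers summed to 40.3 to 54.6 CPM against 40.2 to 41.4 CPM. Markers of T, B and NK cells reached at most 0.642 CPM in sum, and 8 of these 10 had no count in any library. Neutrophil markers summed to at most 1.63 CPM and cholangiocyte markers to 1.85 to 6.25 CPM. The part of these cells in the levels of the LSEC markers, Ccnd1, Tyms or the other cell cycle genes was not tested. In bulk RNA, fewer cells of a type and less RNA per cell cannot be told apart.

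Other genes of the same pathways, 172 in all on 4 lists, were read from the same fit. Of the 147 rows tested, 72 had higher and 75 lower fitted levels in Txnip-/- LSECs, and 0 were DEGs with edgeR, DESeq2 or limma-trend. An unadjusted p under 0.05 (edgeR) was found for 13 of the 147 (4 higher and 9 lower), where 11.5% of all genes tested had one. Without WT replicate 3, 3 of the pathway genes (Trp53i11, Smc4 and Sfn) were DEGs, beside 301 of all 11922 genes tested in that fit. Of these 3, only Sfn was among the 13. Among 46 further replication genes tested, the smallest p-values were those of Rfc1, a clamp loader subunit, and Orc1, a subunit of the origin recognition complex. Rfc1 had 89.0, 94.1 and 70.2 CPM in the Txnip-/- libraries and 107, 109 and 109 CPM in the WT libraries (log2 fold change -0.36, adjusted p = 0.175, edgeR). Orc1 was counted 7, 4 and 3 times (Txnip-/-) and 27, 11 and 38 times (WT) (log2 fold change -2.32, adjusted p = 0.242, edgeR). Neither passed the test. Among 38 further mitosis genes these were Cdca8, a chromosomal passenger subunit, and Ncapg, a condensin subunit, with log2 fold changes of 0.76 and -1.58 in opposite directions (adjusted p = 0.383 and 0.392, edgeR). Among 32 rows of further G1 genes these were Cdk5rap3 and Cdk7, the kinase that activates other CDKs. Their log2 fold changes were 0.78 and -0.48 (adjusted p = 0.305 and 0.330, edgeR). The 3′ end of Ncapg (mean 2.07 CPM) overlaps an exon of Lcorl on the opposite strand, which had 26.8 and 27.7 CPM.

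The further p53 pathway genes held 31 tested genes, of which 11 were higher and 20 lower, with a median log2 fold change of -0.050. Sfn, a p53 target that encodes the 14-3-3 sigma protein, had 14.9, 13.1 and 11.8 CPM in the Txnip-/- libraries and 24.8, 23.2 and 17.2 CPM in the WT libraries. The genotypes did not overlap. Its log2 fold change was -0.72 (95% interval -1.16 to -0.27, adjusted p = 0.121, edgeR), and it was called, at -0.86, without WT replicate 3 (adjusted p = 0.0306, edgeR) but was at -0.38 against WT replicate 3 as the only WT library (adjusted p = 0.582, edgeR). Plk2, a kinase gene that p53 also activates, had 161 ± 27.4 and 130 ± 3.09 CPM (log2 fold change 0.31, adjusted p = 0.279, edgeR). Neither passed the test with all libraries.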

How the data were processed

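Counts were made by the authors from QuantSeq 3′ libraries read from a single end, with Bowtie2 for alignment and Bedtools for counting, where both unique and multiple alignments were kept. The submitters' processing notes name the mm10 build. Versions, the annotation and the use of strand were not given in the sources used here. The deposited whole-number counts per gene symbol were not normalized, and 44 rows that repeat a symbol were kept apart. Each library held 9147764 to 10193952 counts, and the floor of 3 counts covers counting error only.

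In R 4.3.3, edgeR 4.0.16 was run on all 6 libraries with filterByExpr (11583 genes), TMM factors, glmQLFit and glmQLFTest, a design of genotype alone and p-values adjusted over all genes (Benjamini-Hochberg). Standard errors were derived from the F statistic. DEGs were called at an adjusted p of 0.05, as in the study, and a linear fold change of 1.3. The study states 1.3 as a log fold change with no base, and log2 1.3 was an alternative. Alternatives used DESeq2 1.42.0, limma 3.58.1 and the settings named in the closing section. The edgeR steps were tested on simulated data. Positions come from GENCODE M21 on GRCm38, copies at the 3′ end from blastn 2.17.0 (last 300 bases, at least 75 aligned at 95% identity), and promoters from RefSeq on GRCm38.p6.

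The members, roles, pathway lists and marker lists were chosen with earlier results of these data known. Genes are given with their own values where they were DEGs, had an unadjusted p under 0.05, did not overlap between genotypes, or were among the 4 most abundant of their role; of the other lists, the 2 with the smallest p. Other members are named to account for all 52, with their values.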

Additional observations from a re-analysis of the deposited data

How the results depend on the processing

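The count of 1 DEG among the cell cycle genes became 0 with library totals, with the replicate block, with each library left out (range 0 to 0) and with a log2 fold change above 1.3, 2 with DESeq2 and with no filter on low counts (Ccnd1 and Tyms), and 4 at an unadjusted p under 0.05 with a fold above 1.3. The replicate numbers did not pair the libraries (correlations of deviations between same-numbered libraries of -0.0296, 0.0167 and -0.0469); under the replicate block, Ccnd1 had a log2 fold change of 0.43 (adjusted p = 0.105, edgeR). Over all genes tested, 167 DEGs (59 higher, 108 lower) became 252 with DESeq2, 301 with no filter, 108 with the replicate block, 89 to 301 with each library left out (301 without WT replicate 3), 867 at an unadjusted p and 57 at a log2 fold change above 1.3. The split was 35 higher and 145 lower with library totals, and 96 and 98 when a term set WT replicates 1 and 2 apart, leaving WT replicate 3 as the whole WT arm. The difference between the medians of S and M phase genes and G1 regulators, -0.0802, was 0.0309 with that term and -0.0975 to 0.119 with each library left out. Directions turned for some genes. Against WT replicate 3 alone (that term), log2 fold changes were 0.123 (Stmn1), 0.0269 (Mcm3), 0.089 (Rrm1), -0.0399 (Ccnd2), -0.109 (Cdkn1a), 0.165 (Cdkn1b) and 0.370 (Cdkn2b), and with library totals -0.0252 (Cdkn1a) and -0.0789 (Ccng1). Ccng1 was at -0.00153 with no filter, and Cdkn2b at 0.00104 with limma-trend. With each library left out, the ranges that crossed 0 were -0.264 to 0.111 (Stmn1), -0.23 to 0.0801 (Rrm1), -0.221 to 0.00783 (Ccnd3), -0.109 to 0.000416 (Cdk4), -0.184 to 0.0754 (Cdkn2b) and -0.0521 to 0.0323 (Ccng1). The cause of these changes was not tested. Of 495 values for 31 named genes, 462 kept their direction and their side of the threshold. At this depth 4 of the 21 mitosis genes had too few counts to be tested, and 3 of the 17 tested had a 95% interval within 2-fold either way.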
